A study of Mus musculus with 19 samples.

Results

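miR-203 and miR-205 are a pair of microRNAs (miRNAs) best known from skin and other stratified epithelia. All mature miRNAs whose name has the stem miR-203 or miR-205 were taken, which gave 4 of the 1136 miRNAs on the array: mmu-miR-203-3p, mmu-miR-203-5p, mmu-miR-205-5p and mmu-miR-205-3p, called below without the species prefix. The pair was picked because miR-203-3p and miR-205-5p were near background in the extensor digitorum longus (EDL) of high-active mice and measured in every low-active EDL, so EDL levels by strain are given as a description with no test. Mature miRNAs were measured on 19 arrays of 8 male mice of the inbred strains C57L/J (high-active) and C3H/HeJ (low-active). The mice were untreated, were housed singly for 1 week beside a wheel that could not turn and were killed at 9 weeks of age. The soleus, a slow muscle of the calf, gave 4 high-active and 2 low-active arrays. The EDL, a fast muscle of the lower leg, gave 2 high-active and 4 low-active arrays. The nucleus accumbens (NA), a reward region of the forebrain, gave 4 high-active and 3 low-active arrays. Each array held the RNA of 1 mouse and tissue, and several mice gave more than 1 tissue. The submitters' own design note speaks of no biological replicates, while the arrays carry separate mouse numbers, so p-values measure the spread between these arrays. Each strain is a single inbred line, so strain and activity level cannot be told apart.

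A miRNA is cut from a hairpin precursor, which can give a mature strand from each arm, named 5p and 3p. The mature strand is carried by an Argonaute protein and pairs with messenger RNAs mainly through its seed, the bases near its 5′ end. In the epidermis miR-203 rises as keratinocytes leave the basal layer and represses the transcription factor p63, which keeps basal cells dividing. miR-205 is found in basal and stem cells of stratified and glandular epithelia, and together with the miR-200 family it represses ZEB1 and ZEB2, which drive the loss of epithelial character. Neither is counted among the miRNAs that mark skeletal muscle or brain.

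The mature sequences of all 4 miRNAs were found by name in the RefSeq table (mouse build GRCm38.p6). They are shown because the arrays read each arm with its own probes and only 1 arm of each hairpin was detected. The seed, bases 2 to 8 from the 5′ end, is in capitals.
mmu-miR-203-3p: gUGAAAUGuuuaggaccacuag
mmu-miR-203-5p: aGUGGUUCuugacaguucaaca
mmu-miR-205-5p: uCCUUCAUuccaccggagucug
mmu-miR-205-3p: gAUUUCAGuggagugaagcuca
The 4 seeds differ from each other. None of the 1679 mature mouse miRNAs in the table shares a seed with any of them, so neither miRNA has a seed family on the array.

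The hairpins show where the strands lie, with both mature arms in capitals.
Mir203: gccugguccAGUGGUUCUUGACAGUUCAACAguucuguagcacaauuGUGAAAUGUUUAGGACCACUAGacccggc
Mir205: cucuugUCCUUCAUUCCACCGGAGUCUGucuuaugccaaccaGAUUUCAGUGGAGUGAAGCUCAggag
The Mir203 hairpin of 76 bases lies on the plus strand at chr12:112130880-112130955 (GRCm38.p6), between the protein-coding genes Aspg and Kif26a. The detected strand, miR-203-3p, is its second arm, at chr12:112130927-112130948. A further hairpin, Gm51289, is annotated on the opposite strand of the same site at chr12:112130887-112130946 and gives miR-203b-3p and miR-203b-5p, neither of which is on the array. The Mir205 hairpin of 68 bases lies on the minus strand at chr1:193507463-193507530, inside the long non-coding RNA gene Mir205hg (chr1:193506460-193510210) and between Camk1g and Plxna2. Here the detected strand, miR-205-5p, is the first arm, at chr1:193507503-193507524. The genes lie on different chromosomes.

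An array carries several spots for each probe, and a probe was called detected on an array when more than 50% of its spots were well above background by the scanner software. miR-203-3p was detected on 16 of 19 arrays and miR-205-5p on 7. miR-203-3p was read by 2 probes of 20 spots each, of which the brighter was detected on 16 arrays and the dimmer on 12. Both probes of miR-205-5p were detected on the same number of arrays, 7. The brighter probe of each gave the values below. The ratio of the 2 probes kept within 1.43 to 2.07 for miR-203-3p and within 1.59 to 1.69 for miR-205-5p on the arrays where the miRNA was detected. The opposite arms were not detected. Each of the 4 probes of miR-203-5p averaged between -5.75 and 3.60 intensity units on every array, and both probes of miR-205-3p averaged between -4.23 and 0.05, with no spot well above background anywhere. A value below 0 is a spot dimmer than its local background.

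The tissues read as labelled. miR-1a-3p, the classical muscle miRNA, had mean log2 signals of 17.18 to 17.63 in the 4 muscle groups and of 7.40 and 7.89 in the NA groups, and miR-124-3p, the classical neuronal miRNA, was detected on all NA arrays and on no muscle array. Brightness differed between arrays: the 75th percentile of unscaled intensity over the probes detected on all soleus arrays ran from 588 to 1001 on the high-active arrays and was 1206 and 1357 on the low-active ones. It ran from 480 to 1290 in the EDL and from 558 to 1338 in the NA. Levels below are therefore given first as unscaled intensity, the mean of a probe's spots in scanner units with the SD over spots where shown, and then as log2 signal, the intensity after scaling the arrays to a common 75th percentile. Scaled signals under a floor were set to it. The floor was the median, over the arrays scaled together, of each array's lowest signal among detected probes. Detected signals under it were raised as well.

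In the soleus miR-203-3p was brightest on the low-active arrays, although the difference did not pass the test. Its unscaled intensity was 14.2 in high-active mouse 223, 62.2 in mouse 224, 29.5 in mouse 225 and 27.8 in mouse 227. In the low-active mice it was 99.4 in mouse 194 and 123 in mouse 195. Mouse 224 stood well above its 3 strain mates, mouse 223 was not detected, and both low-active arrays lay above all high-active ones. On the log2 scale the high-active level was 5.13 ± 0.52 (SD, n = 4), the low-active level was 6.31 ± 0.10 (SD, n = 2), and the groups did not overlap. Groups that did not overlap in this direction were found for 12.3% of the 342 miRNAs tested. The difference, high-active minus low-active, was -1.18 (standard error 0.349, 95% interval -2.07 to -0.29) and did not pass correction (adjusted p = 0.177 from limma, with 0.877% of all tested miRNAs called lower and 0.292% called higher in high-active mice). Without mouse 224 it was -1.35 and passed (adjusted p = 0.0316 from limma), and with no scaling between arrays it was -1.75 and passed (adjusted p = 0.0378 from limma). With normexp background correction it shrank to -0.08 (adjusted p = 0.670 from limma), while the software's own signal per miRNA gave -1.83. Slide 1, on which mouse 225 met mouse 195, gave a difference of -1.35, and slide 2, on which mice 224 and 227 met mouse 194, gave -0.79. The low-active soleus arrays were also the brightest of the tissue, as given above, and the part of array brightness in this difference was not tested. Mice 194, 195, 225 and 227 also gave EDL arrays by which the pair was chosen, so the soleus difference is not independent of that choice.

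miR-205-5p followed the same mice in the soleus. It was near background in 3 of the 4 high-active mice, at 3.00 units in mouse 223, 5.68 in mouse 225 and 4.90 in mouse 227, with no spot well above background. Mouse 224 of the same strain gave 45.8, with all of its spots well above background. The low-active mice gave 41.3 in mouse 194 and 63.1 in mouse 195. Mouse 224 therefore lay between the low-active arrays, and the groups overlapped. The log2 level was 4.80 ± 0.40 (SD, n = 4, 3 of them at the floor) against 5.20 ± 0.31 (SD, n = 2). The difference of -0.40 (standard error 0.296, 95% interval -1.16 to 0.36) was no larger than the spread between mice and did not pass (adjusted p = 0.545 from limma). It was -0.82 within slide 1 and 0.02 within slide 2, which holds mouse 224. Its size also changed with the treatment of near-background signals and with single arrays: it was 0.05 with normexp background correction, -1.99 at a floor of 1 unit and -5.67 with the software's signal, and -0.03 without mouse 195.

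**Figure D1:**
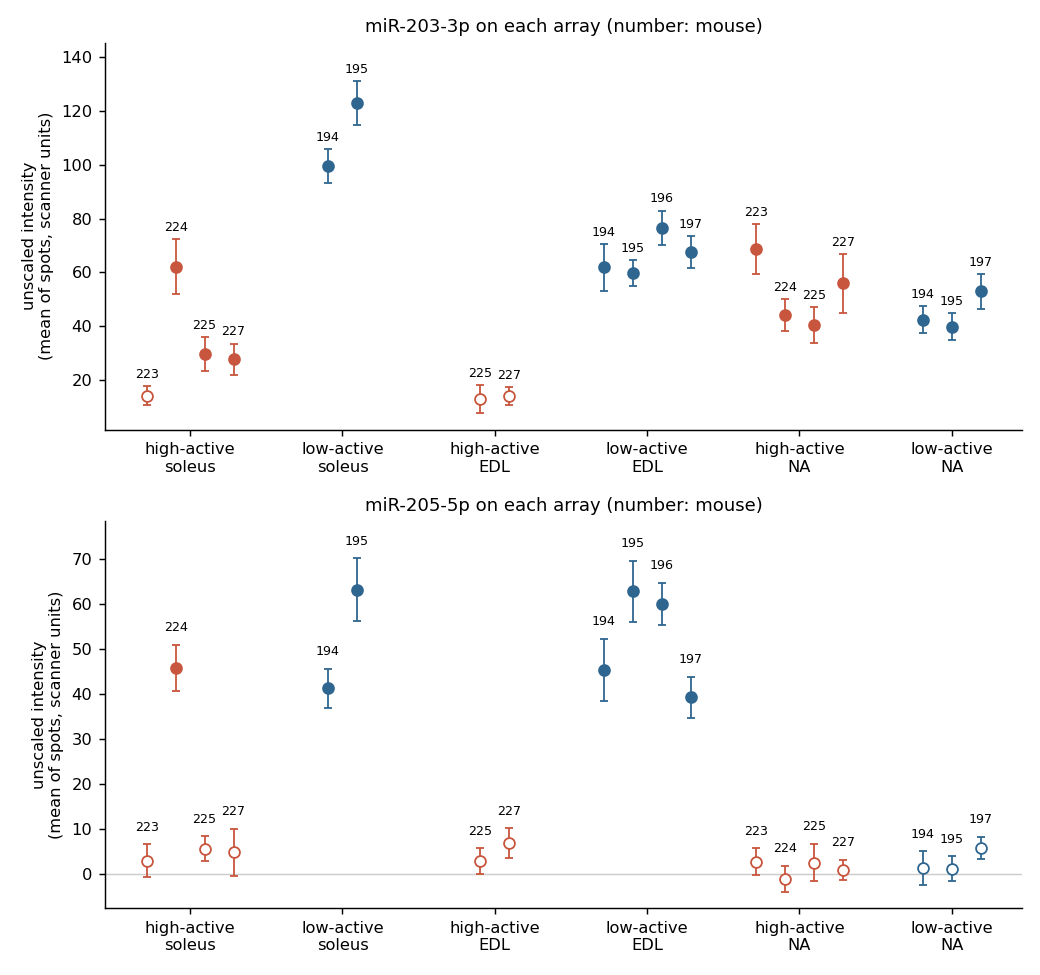
Unscaled intensity of miR-203-3p (upper) and miR-205-5p (lower) on each of the 19 arrays, by strain and tissue, with the mouse number above each point. Red is high-active and blue low-active, bars are the SD over a probe's spots, and open points are arrays on which the probe was not detected. miR-205-5p sits between 39.2 and 63.1 units on 7 muscle arrays and at or under 6.90 on all others.

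In the EDL the strains were apart by choice of the miRNAs. miR-203-3p gave 12.9 ± 5.17 units (SD over spots) in high-active mouse 225 and 14.1 ± 3.32 in mouse 227, against 61.8 in low-active mouse 194, 59.7 in mouse 195, 76.6 in mouse 196 and 67.5 in mouse 197. Of its spots, 10.5% were well above background in mouse 225 and 0% in mouse 227. miR-205-5p gave 2.86 and 6.90 units in the same high-active mice, and 45.3, 62.8, 60.0 and 39.2 units in low-active mice 194, 195, 196 and 197. Both high-active arrays were thus not well above background for either miRNA, and the fold is a bound: the low-active mean over the high-active limit was at least 3.24-fold for miR-203-3p and at least 2.49-fold for miR-205-5p. The limit of an array is the higher of its lowest signal among probes well above background and the probe's own signal. The bound holds for this processing only. With normexp background correction the log2 differences, high-active minus low-active, were -0.47 for miR-203-3p and -0.43 for miR-205-5p. The pattern of detection on every low-active and no high-active EDL array was shared by 3 of 352 miRNAs, or 0.852%, of which the third was miR-1957a. The opposite pattern was shown by 0 of 352, or 0%. Since this contrast chose the members, nothing is read from that share.

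Just inside the pattern, miR-1957a reached a log2 signal of only 4.48 in mouse 194 and 6.62 in mouse 195, against the floor of 4.22 in both high-active mice. Just outside it, 7 miRNAs were detected on all 4 low-active arrays and 1 of 2 high-active arrays, and 4 were detected on 3 low-active arrays and no high-active one. The 4 low-active EDL levels were 6.06 ± 0.56 (SD, n = 4) for miR-203-3p and 5.68 ± 0.90 (SD, n = 4) for miR-205-5p. The unscaled intensities of miR-203-3p spanned 59.7 to 76.6 units, and the scaled ones 47.9 to 114 units. Mouse 195 had the dimmest EDL array, with a 75th percentile of 480, and the highest scaled level of both miRNAs, 6.83 and 6.90, while mouse 197 had the brightest and the lowest level, 5.58 and 4.80. Within slide 1, which paired mouse 227 with mouse 195, the EDL differences taken at the floor were -2.61 for miR-203-3p and -2.68 for miR-205-5p. Within slide 3, which paired mouse 225 with mouse 197, they were -1.36 and -0.58.

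The NA separated the 2 miRNAs. miR-203-3p was detected on all 7 NA arrays, with unscaled intensities of 68.7, 44.2, 40.4 and 55.9 in high-active mice 223, 224, 225 and 227 and of 42.5, 39.9 and 53.0 in low-active mice 194, 195 and 197. The strains overlapped throughout. High-active mice had a log2 level of 5.51 ± 0.28 (SD, n = 4) and low-active mice of 5.70 ± 0.30 (SD, n = 3), and the difference of -0.19 (standard error 0.206, 95% interval -0.67 to 0.29) did not pass (adjusted p = 0.616 from limma). Of the 391 miRNAs tested there, 5.88% were called lower and 1.02% higher in high-active mice. miR-205-5p was detected on none of the 7 NA arrays, where it ranged from -0.97 to 5.85 units. It was one of 84 miRNAs, or 16.4% of the 511 detected anywhere, that were seen in muscle and not in the NA.

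Placed side by side with all 19 arrays scaled together, the levels of miR-203-3p ran from low-active soleus (6.40 ± 0.21, SD, n = 2) and low-active EDL (6.24 ± 0.56, SD, n = 4) through low-active NA (5.52 ± 0.23, SD, n = 3), high-active NA (5.30 ± 0.26, SD, n = 4) and high-active soleus (5.14 ± 0.57, SD, n = 4) to high-active EDL at the floor of 4.41. The ranges of each neighbouring pair overlapped up to high-active soleus, whose lowest array, at 4.50, lay just above the floor. For miR-205-5p the order was low-active EDL (5.87 ± 0.91, SD, n = 4), low-active soleus (5.29 ± 0.43, SD, n = 2) and high-active soleus (4.66 ± 0.52, SD, n = 4), followed by 3 groups at the floor with no order among them. Here too each neighbouring pair overlapped. Over both muscles, miR-203-3p was detected in 6 of 6 low-active and 3 of 6 high-active samples. For miR-205-5p the counts were 6 of 6 and 1 of 6. These counts include the EDL arrays used to choose the pair, and 4 mice gave both muscles. The share of all miRNAs with such counts was not taken. Each low-active soleus array detected 342 to 346 miRNAs and each high-active one 266 to 315. In the EDL the ranges were 242 to 338 and 282 to 324.

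Soleus and NA could be compared with no EDL array in the contrast. Mice 194, 195, 225 and 227 gave soleus arrays and also EDL arrays by which the pair was chosen. The comparisons are therefore not independent of that choice. In low-active mice miR-203-3p was higher in the soleus than in the NA by 0.88 (standard error 0.362, 95% interval 0.11 to 1.66, adjusted p = 0.0414 from limma). The same call was made for 26.2% of the 484 miRNAs tested, and the opposite call for 42.6%. The call held under 16 of 29 alternatives. It was lost with slide as a block (0.78, adjusted p = 0.0737 from limma) and with normexp background correction (0.23, adjusted p = 0.520 from limma), and when any 1 of 9 arrays was left out, with differences between 0.73 and 1.03 and an adjusted p of at most 0.200 from limma. These were low-active soleus mice 194 and 195, low-active NA mice 194 and 197, high-active NA mice 223, 225 and 227 and high-active EDL mice 225 and 227. The high-active arrays are outside this contrast and act on it through the shared spread, scaling and floor. In high-active mice the difference was -0.16 (95% interval -0.76 to 0.44, adjusted p = 0.641 from limma), in a comparison that called 29.8% of miRNAs higher and 42.4% lower in the soleus. The strain difference in soleus minus that in NA was -1.04 on the log2 scale (95% interval -2.02 to -0.06), which did not pass correction (adjusted p = 0.231 from limma, with 0.413% of miRNAs called in this direction and 7.23% in the other). The direction of every one of these differences relies on a common scale for muscle and brain, whose miRNA populations differ widely.

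For miR-205-5p the NA arrays supply a limit and no level. The low-active soleus mean stood at least 1.80-fold above it (difference at the floor 0.88, adjusted p = 0.0934 from limma). The low-active EDL mean stood at least 2.69-fold above the NA limit, with no test. In high-active mice soleus and NA differed by 0.26 (95% interval -0.48 to 1.00, adjusted p = 0.531 from limma), which rests on mouse 224 alone, since without it both groups lay at the floor. The strain difference did not differ between soleus and NA beyond the spread (-0.63, 95% interval -1.83 to 0.58, adjusted p = 0.638 from limma).

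**Figure D2:**
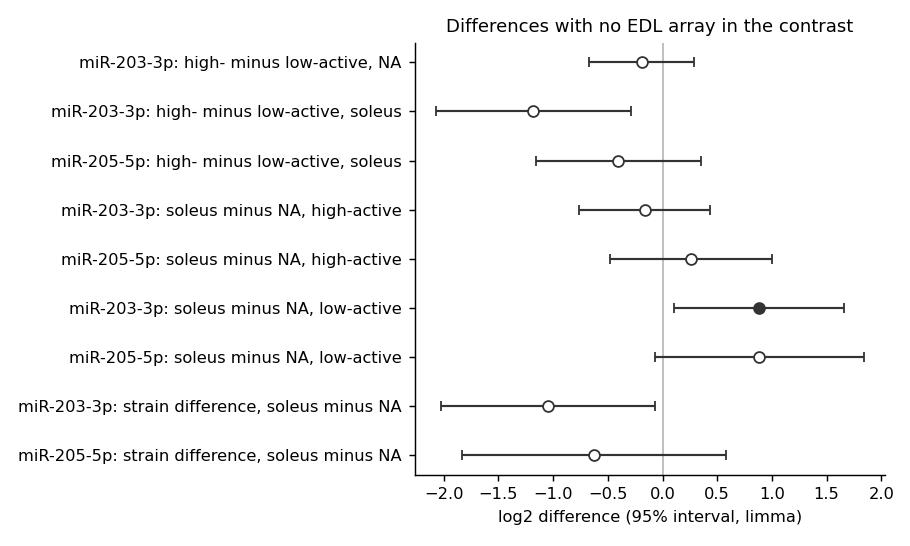
Log2 differences of miR-203-3p and miR-205-5p with 95% intervals from limma, for contrasts that hold no EDL array. Some of these mice also gave the EDL arrays by which the pair was chosen. Filled points passed an adjusted p of 0.05 and open points did not. Only the difference between low-active soleus and NA for miR-203-3p, 0.88, is filled.

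Mouse by mouse, the 2 miRNAs went together in muscle. All 7 muscle arrays on which miR-205-5p was detected also had miR-203-3p at 59.7 units or more, and the 5 muscle arrays without miR-205-5p had miR-203-3p at 29.5 units or less. The split followed strain except for the soleus of mouse 224. The EDL of that mouse is not analysed here. Mice 225 and 227 were low for both miRNAs in soleus and EDL alike, and mice 194 and 195 were high for both in soleus and EDL alike. In the NA of the same mice no such split was seen, since miR-205-5p was not detected there and the strains overlapped for miR-203-3p. Mouse 223, lowest in the soleus for miR-203-3p, was in the middle of the 7 mice in the NA at a scaled log2 signal of 5.52. Pearson's r between the log2 signals was 0.88 over the 12 muscle arrays (Spearman's rho 0.94) and 0.82 over all 19 (rho 0.84). These are descriptions: both miRNAs were chosen on 6 of these arrays, the values share array brightness and scaling, and many are at the floor.

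**Figure D3:**
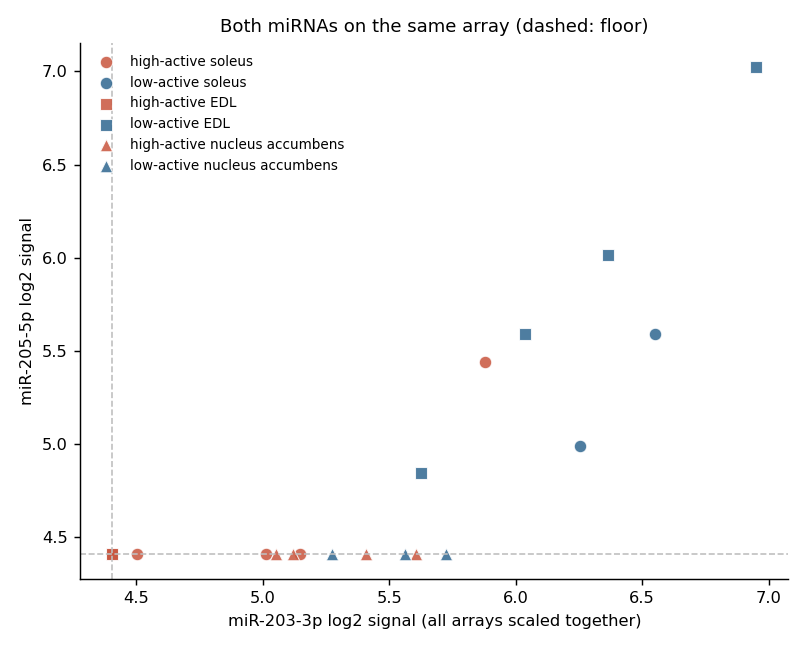
Log2 signal of miR-205-5p against miR-203-3p on the same array, all 19 arrays scaled together, with the floor of 4.41 dashed and both high-active EDL arrays lying on top of each other at the floor of both. Circles are soleus, squares EDL and triangles NA, with high-active in red and low-active in blue. Of the high-active arrays, 1 soleus array lies among the low-active muscle arrays, while the NA arrays spread along the floor of miR-205-5p.

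Leaving the pair itself aside, the miRNAs most like miR-203-3p over the 12 muscle arrays, among 307 detected on at least 6 of them, were miR-181d-5p (Pearson's r 0.90), miR-671-5p (0.88), miR-681 (0.86), miR-5130 (0.86) and miR-3075-5p (0.86). For miR-205-5p they were miR-3099-3p (0.87), miR-1927 (0.86), miR-504-3p (0.86), miR-671-5p (0.85) and miR-3075-5p (0.82). Over all 19 arrays and 405 candidates, the closest to miR-203-3p were miR-1957a (0.79), miR-3075-5p (0.78), miR-504-3p (0.78), miR-1940 (0.74) and miR-1927 (0.73), and the closest to miR-205-5p were miR-1927 (0.88), miR-3075-5p (0.87), miR-504-3p (0.86), miR-1957a (0.85) and miR-681 (0.85). The r of miR-203-3p with miR-205-5p themselves was 0.88 in muscle and 0.82 over all arrays. In muscle it was above every one listed for miR-205-5p, and below only miR-181d-5p among those listed for miR-203-3p. Over all arrays it was above every one listed for miR-203-3p and below every one listed for miR-205-5p. None of the miRNAs listed as most alike is an epithelial miRNA of the lists below. The miR-200 family, miR-31-3p and miR-184-3p were detected on too few arrays to be candidates, and miR-31-5p on too few in muscle. Their absence where they were not candidates says nothing. The listed miRNAs are dim: the highest log2 signal any of them reached was 7.72, for miR-671-5p. Of them, miR-1957a has the EDL pattern by which the pair was chosen. Next to that pattern lay miR-1927, miR-3075-5p, miR-3099-3p and miR-504-3p, detected on 4 low-active EDL arrays and 1 high-active one, and miR-1940, detected on 3 and none. The correlations share array brightness and the floor, and no p is given.

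The epithelial label of the pair was set against miRNAs known from epithelia. The miR-200 family (miR-200a, miR-200b, miR-200c, miR-141 and miR-429), which marks epithelial cells broadly, gave 0 of 9 mature miRNAs detected on any of the 12 muscle arrays, and its summed scaled intensity stayed between 0.58 and 22.5 units there. miR-31-5p, abundant in keratinocytes, was likewise on no muscle array, and miR-184-3p and miR-31-3p were not detected in muscle. The 2 remaining keratinocyte miRNAs, miR-34a-5p and miR-210-3p, occur in many cell types. They were detected on all muscle arrays, and neither passed between strains in the soleus (-0.26 and -0.32, adjusted p = 0.764 and adjusted p = 0.341 from limma). In these muscles, miR-203-3p and miR-205-5p were thus measured with no miR-200 family member and no miR-31 beside them.

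In the NA 3 to 8 of the 9 miR-200 family miRNAs were detected in each high-active mouse and 6 in low-active mouse 197. In low-active mice 194 and 195 the count was 0 of 9, as in muscle. The family ranged far more widely between mice than miR-203-3p did. The family summed to 20201 units in high-active mouse 223, 15603 in mouse 227, 8928 in mouse 225 and 152 in mouse 224, and to 5549, 38.4 and 17.7 in low-active mice 197, 195 and 194. miR-203-3p stayed between 39.9 and 68.7 units on these arrays. These miR-203-3p values are unscaled, while the family sums are of intensities with all arrays scaled together. Scaled within the NA, miR-203-3p was highest in low-active mouse 195, at 63.8 units with a family sum of 38.4. It was 59.4 in mouse 227, 52.8 in mouse 197, 45.8 in mouse 223 and 43.3 in mouse 225. Lowest were mouse 194 at 42.0 and mouse 224 at 37.0 units, with family sums of 17.7 and 152. Of the family, 7 miRNAs were tested between strains in the NA and none passed, beside 27 of all 391 tested. The family had a median difference of 2.76, beside -0.11 over all miRNAs. miR-31-5p was detected on all 7 NA arrays, at 7.27 ± 0.11 (SD, n = 4) in the high-active strain and 7.40 ± 0.12 (SD, n = 3) in the other.

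**Figure D4:**
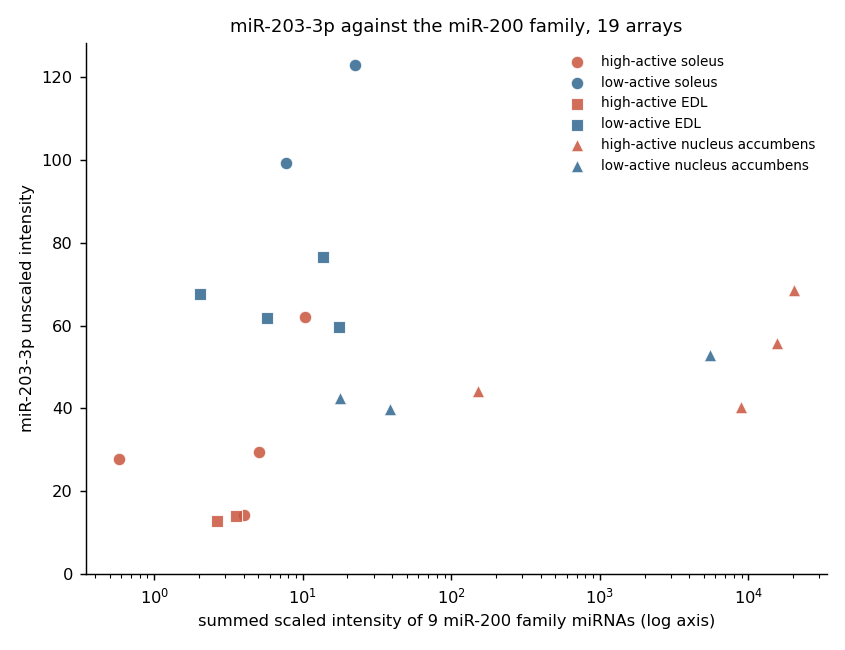
Unscaled intensity of miR-203-3p against the summed scaled intensity of 9 miR-200 family miRNAs (log axis) on the 19 arrays, with circles for soleus, squares for EDL, triangles for NA, red for high-active and blue for low-active. The muscle arrays span 12.9 to 123 units of miR-203-3p at family sums of at most 22.5, while the NA arrays span sums of 17.7 to 20201 within 39.9 to 68.7 units.

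Other cell types that a muscle sample can hold were read from lists of marker miRNAs. List sums are of intensities with all arrays scaled together. Of 24 listed miRNAs tested between strains in the soleus and 32 in the NA, none passed. Over all miRNAs, 4 of 342 passed in the soleus and 27 of 391 in the NA. Fibroblast and connective tissue miRNAs had the lowest soleus median, -0.39 over 6 tested in the soleus, beside -0.02 over all 342. Among them, miR-199a-3p differed by -0.43 (adjusted p = 0.107 from limma) and miR-21a-5p by -0.35 (adjusted p = 0.179 from limma). The list summed to 6621 to 8414 units on high-active and 10126 to 10424 units on low-active soleus arrays, with 5 and 6 of 7 miRNAs detected. In the EDL it summed to 8695 to 10016 and 7329 to 15248 units, so the strains overlapped there. The leukocyte and vascular lists had higher sums on the 2 high-active than on the 4 low-active EDL arrays. They were 1617 to 1644 and 10843 to 11166 units on high-active arrays against 1117 to 1439 and 7591 to 10371 units on low-active ones. Both lowest sums came from mouse 195, whose EDL array was the dimmest before scaling and had the highest fibroblast sum, 15248. The direction of miR-203-3p and miR-205-5p in the EDL was set by their choice, so nothing is read from the opposite direction of these lists. In the soleus the leukocyte list summed to 1612 to 1925 units on high-active and 1307 to 1484 units on low-active arrays. The part of these lists in the levels of either miRNA was not tested. In these bulk samples fewer cells of a type and less RNA per cell cannot be told apart.

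The remaining lists had soleus medians of 0.34 for 2 red cell miRNAs, 0.29 for 6 skeletal muscle, 0.19 for 3 leukocyte, 0.12 for 3 vascular, -0.16 for 2 brain and -0.29 for 2 keratinocyte miRNAs. In the NA the medians were -0.90 for 2 red cell, -0.76 for 3 skeletal muscle, -0.10 for 3 leukocyte, 0.11 for 3 vascular, 0.10 for 6 brain, -0.07 for 4 keratinocyte and -0.03 for 4 fibroblast miRNAs. miR-451a, the red cell miRNA, was detected on every array, at 12.20 ± 0.35 (SD, n = 4) and 12.51 ± 0.18 (SD, n = 2) in high- and low-active soleus and at 11.31 ± 0.33 (SD, n = 2) and 11.26 ± 0.57 (SD, n = 4) in the EDL. The endothelial miR-126-3p was at 13.42 ± 0.15 (SD, n = 4) and 13.36 ± 0.04 (SD, n = 2) in the soleus, and the leukocyte miR-223-3p at 9.45 ± 0.23 (SD, n = 4) and 9.52 ± 0.21 (SD, n = 2). These 3 differed between soleus strains by less than their spread. The leukocyte miR-150-5p did not overlap, at 9.88 ± 0.22 (SD, n = 4) and 9.20 ± 0.01 (SD, n = 2). Scaled within the soleus, groups did not overlap in this direction for 17.3% of the 342 miRNAs tested. The difference of miR-150-5p within the soleus, 0.73, did not pass (adjusted p = 0.0914 from limma). In the NA of low-active mouse 197 the muscle list summed to 2088 scaled units against 383 to 492 on the other NA arrays. There miR-203-3p was at 53.0 units unscaled.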

How the data were processed

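Total RNA labelled with a single dye was hybridised to Agilent mouse miRNA arrays (19 arrays on 3 slides). Each array holds values for 1136 miRNAs. Per the file headers, the authors' scanner software (Feature Extraction 10.7.1.1) wrote background-subtracted intensities per spot and a signal per miRNA, with no normalization between arrays. The deposited series table holds log2 values that the authors normalized by a percentile shift within each tissue. The scale and centring of each member in it were recovered here, while the percentile was not. Arrays that the authors judged uneven are not analysed here.

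Spots marked as outliers and control spots were left out, and the remaining processed intensities were averaged per probe. Arrays were scaled within a tissue to a common 75th percentile over probes detected on all of them (594 in the NA, 456 in the soleus, 417 in the EDL, and 328 over all arrays), floored at 24.3, 24.2, 18.7 and 21.2 units and taken to log2. A miRNA took its brightest probe. Strains were compared within a tissue, and tissues over all arrays, by lmFit and eBayes of limma 3.58.1 under R 4.3.3, with p-values adjusted by Benjamini-Hochberg and called under 0.05, over miRNAs detected on at least 3 NA, 2 soleus or 2 arrays overall. The procedure was tested on simulated data.

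The members and lists were chosen with earlier results of these data known. Named are all members, up to 4 of the brightest miRNAs of each list, and the 5 most like each detected member over muscle and over all arrays. miR-31-3p, a fainter list member, was named after their values were seen. Mouse numbers mark tissues of the same animal, so the tissue comparisons were also run with mouse as a random replicate block, whose consensus correlation was 0.09. Within a tissue no arrays are paired. Normexp used median in place of mean spot signals. The number of arrays limits the precision.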

Additional observations from a re-analysis of the deposited data

Results flagged for a closer look

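miR-205-5p in the soleus of high-active mouse 224 stood apart from its group, with a log2 signal of 5.39 against the floor of 4.60 in the other 3 high-active mice. Among untied values chance alone sets 1 sample apart in this way in about 1 group of 20. That rate does not apply here: the other 3 values are tied at the floor, so any value above it would have stood apart. miR-203-3p in the same sample, at 5.84, was the highest of its group and was not far enough from the others to stand apart by the same measure. The array of mouse 224 was the brightest of the high-active soleus arrays, with a 75th percentile of 1001 against 588 on the dimmest. In scaled units its fibroblast list summed to 7172 against 6621 to 8414 on the other 3. Its vascular list summed to 11594 against 12672 to 14515, and its miR-200 family to 10.4 against 0.58 to 5.06 with none detected. The part of any of these in its value was not tested.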

How the results depend on the processing

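The size of the EDL difference between strains depended on how near-background signals were treated. Its sign was the same under all 16 settings for both miRNAs, but this contrast chose them, so nothing is read from that. For miR-203-3p the difference was -0.47 with normexp background correction, -6.00 with the software's signal per miRNA and -5.93 in the authors' table. For miR-205-5p it was -0.43, -8.42 and -8.35, with -3.57 at a floor of 1 unit. Within slide 1 these were -2.61 and -2.68. In the soleus miR-203-3p was lower in high-active mice under all 18 settings and passed under 2, with no scaling (-1.75) and without mouse 224, and leaving out each array gave -1.35 to -1.06. It was -0.08 with normexp, -1.83 with the software's signal and -1.77 in the authors' table. miR-205-5p passed under no setting and gave -0.82 within slide 1, 0.0188 within slide 2, 0.05 with normexp, -5.67 with the software's signal, -5.61 in the authors' table, -1.99 at a floor of 1 unit and -0.56 to -0.03 without single arrays, and miR-203-3p in the NA gave -0.56 within slide 2. Between soleus and NA in low-active mice, miR-203-3p passed under 16 of 29 settings. It did not with normexp (0.23), the software's signal (0.87), a floor of 1 unit (0.88) or slide as a block (0.78), and spanned 0.73 to 1.03 when single arrays were left out. There miR-205-5p passed with scaling over all probes (1.02), quantile normalization (1.11), no scaling (1.15), the software's signal (7.82) and a floor of 1 unit (4.16), and without EDL mouse 195 or 197, over a range of 0.56 to 1.16. In high-active mice miR-203-3p passed with no scaling (-0.64) and miR-205-5p at a floor of 1 unit (2.75). The difference between tissues in the strain effect of miR-203-3p passed with no scaling (-1.94). With mouse as a replicate block, which pairs tissues of an animal, miR-203-3p differed by 0.86 between low-active soleus and NA (adjusted p = 0.0389 from limma), and no call of either miRNA changed. Over all miRNAs, the settings moved the number passing between strains from 4 to between 0 and 52 in the soleus and from 27 to between 4 and 31 in the NA, and for the tissue difference in the strain effect from 37 to between 0 and 76. No cause was tested. Signals near background and groups of 2 to 4 arrays limit all of these values.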

Other observations

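The scanner software's own signal per miRNA and the deposited series table describe the same EDL arrays on another scale. The software writes 0.1 for a miRNA it does not detect. It wrote 0.1 for miR-205-5p on both high-active EDL arrays and for miR-203-3p in mouse 227, but 4.75 for miR-203-3p in mouse 225, which it called detected, while 10.5% of the spots there were well above background. In the series table miR-203-3p stood at -3.22 and -8.15 and miR-205-5p at -8.16 and -7.52 in high-active mice 225 and 227, against -0.04 to 0.67 and -0.23 to 1.44 in the low-active mice. Each of these entries has a median of 0 within the tissue.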
